A study of Mus musculus with 7 samples.

Results

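The cells described here are NSCG-mCherry tumour cells, a mouse glioma line that carries the constitutively active receptor EGFRvIII on a background without Arf/Ink4a, taken from brain tumours of C57BL/6 mice. A barcode was taken as a tumour cell when it held at least 1000 UMIs and 500 genes, at most 15% mitochondrial UMIs, at least 2 UMIs of Egfr, Cdkn2a, Sox2 and Nes summed together, and none of Ptprc, C1qa, Cldn5 or Pecam1. This rule took 26182 of the 51795 cells that passed the quality limits in 7 libraries. The libraries were put into 2 sets. Set A has the consecutive library names scrCCB128 to scrCCB130 and holds IgG replicate 1, BP replicate 2 and BPI, with 4118, 3814 and 3698 tumour cells. The other 4 libraries are UT, BP replicate 1, CD40 and IgG replicate 2, named scrCCB001, scrCCB086, scrCCB136 and scrCCB137, with 1423, 2837, 4761 and 5531 tumour cells, and their names alone do not make them a set.

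Hosts were 7 to 10 weeks old at the start, tumours were taken at about day 14, and each library pooled at least 2 mice. The IgG, BP and BPI mice had 3 rounds of treatment. IgG mice received an IgG2b isotype antibody at 10 mg/kg. BP mice received B20, an antibody to VEGF, at 5 mg/kg together with anti-PD-L1 at 10 mg/kg. BPI mice received the same pair plus the PI3K inhibitor IPI-145 by mouth at 10 mg/kg, and the matching isotype controls also had the carrier by gavage, without a statement of which IgG library these are. CD40 mice received an agonist antibody, 2 doses of 100 µg, and whether this library also had a dendritic cell vaccine is not stated. UT mice were untreated. IgG and BP therefore have 1 library in each set, while BPI occurs only in set A and UT and CD40 only among the other 4.

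Gliomas often keep programmes of the brain lineages they resemble. Oligodendrocyte progenitors are set by the transcription factors Olig1 and Olig2, while Gfap marks astrocytes and Sox2 and Nestin mark neural stem cells. Wfdc2 encodes a small secreted protease-inhibitor-like protein best known from epithelia of the reproductive tract and airways. A transplanted line is usually treated as a single population, so the comparison asks which genes separate the tumour cells of the 2 library sets. The split was proposed with the tumour profiles of these libraries known, so the p-values below measure the gap between the sets against the spread among libraries and are no independent evidence that there are 2 sets.

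Summed over its tumour cells, a library held between 42925641 and 67428874 UMIs in set A and between 28594079 and 113328203 in the others, and the median tumour cell held 10885 to 16038 UMIs in set A and 17640 to 20204 in the others. The median mitochondrial share was 3.59% to 4.04% in set A and 2.01% to 3.51% in the others. An upper bound on free RNA in tumour cells, from 4 myeloid genes, was 1.28% to 1.67% in set A, 1.03% to 1.05% in CD40 and IgG replicate 2, 3.12% in UT and 3.74% in BP replicate 1. Any pair of libraries shared 0 to 26 cell barcodes, at most 0.384% of the smaller library. Pairs with UT shared 0 to 3 and all other pairs 10 to 26. UT listed 713553 barcodes in all against 1487060 to 2310016 in the other libraries. The labels give the same chemistry for all libraries and do not say whether UT was made with another kit. A different barcode set or kit in UT cannot be told apart from its other differences. Doublets were removed only through the 4 excluded genes. Of the rule's own genes, Egfr was listed at 228 to 248 CPM (UMI counts scaled to a common library size after TMM) in set A and 61.1 to 186 in the others, Cdkn2a at 213 to 230 and 149 to 161, Sox2 at 64.4 to 66.1 and 43.2 to 123, and Nes at 86.7 to 125 and 128.6 to 275. These 4 genes chose the cells, and no test result is given for them. Cdkn2a is the Arf/Ink4a gene; the labels give it as lost but do not say which part was removed, so 3′ counts of it do not check the deletion.

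The sequences before the RefSeq starts of 5 genes on which the comparison turns are shown because these genes stood under 5 CPM in every library of one set. They come from RefSeq (GRCm38.p6), in which 5 of the 6 genes looked up were matched; Olig1 is named only. Each run is read 5′ to 3′ on the gene's strand from the 250 bases before the start, without bases that GENCODE M21 places in an exon, and capitals mark CG dinucleotides. Wfdc2 is chr2:164562475-164562578 on the plus strand, Tex19.1 is chr11:121145893-121146142 on the plus strand, Igfbp3 is chr11:7213924-7214173 on the minus strand, Ptprz1 is chr6:22875252-22875501 on the plus strand and Olig2 is chr16:91225300-91225456 on the plus strand. The Wfdc2 run lies inside the wider span that GENCODE gives this gene, outside its exons.
Wfdc2: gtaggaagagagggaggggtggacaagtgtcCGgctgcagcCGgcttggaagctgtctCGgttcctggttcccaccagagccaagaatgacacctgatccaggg
Tex19.1: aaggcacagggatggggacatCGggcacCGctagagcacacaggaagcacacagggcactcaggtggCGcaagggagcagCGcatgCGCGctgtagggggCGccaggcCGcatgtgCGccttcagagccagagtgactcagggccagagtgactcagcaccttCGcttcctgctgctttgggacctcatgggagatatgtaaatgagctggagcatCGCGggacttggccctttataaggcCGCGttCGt
Igfbp3: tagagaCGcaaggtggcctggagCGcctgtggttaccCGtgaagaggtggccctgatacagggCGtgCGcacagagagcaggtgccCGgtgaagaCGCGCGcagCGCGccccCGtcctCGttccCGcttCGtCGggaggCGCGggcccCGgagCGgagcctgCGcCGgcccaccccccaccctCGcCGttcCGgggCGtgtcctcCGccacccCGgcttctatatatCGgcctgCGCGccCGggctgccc
Ptprz1: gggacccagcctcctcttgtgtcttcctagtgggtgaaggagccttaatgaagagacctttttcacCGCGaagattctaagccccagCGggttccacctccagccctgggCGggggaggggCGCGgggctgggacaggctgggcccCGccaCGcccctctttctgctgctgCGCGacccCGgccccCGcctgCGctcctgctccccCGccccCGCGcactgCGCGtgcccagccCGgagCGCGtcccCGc
Olig2: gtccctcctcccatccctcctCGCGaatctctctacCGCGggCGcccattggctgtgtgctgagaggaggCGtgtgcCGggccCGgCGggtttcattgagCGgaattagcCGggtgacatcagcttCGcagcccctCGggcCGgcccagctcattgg
Over the full 250 bases the CG counts were 14 for Wfdc2, 15 for Tex19.1, 32 for Igfbp3, and 22 each for Ptprz1 and Olig2. Across 27025 mouse promoters of the same length the median was 6, and 91.7% held at least 1 CG. Of these promoters 72.5% held no more CGs than Wfdc2, 74.4% no more than Tex19.1 and 96.2% no more than Igfbp3. For Ptprz1 and for Olig2 it was 87.0%. Methylation was not measured in these libraries.

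Wfdc2 (ENSMUSG00000017723, chr2:164562413-164568510, plus strand) was present in the tumour cells of set A and close to 0 in those of the other 4 libraries. It stood at 323, 363 and 451 CPM in IgG replicate 1, BP replicate 2 and BPI, and at 1.49, 0.152, 0.847 and 0.309 CPM in UT, BP replicate 1, CD40 and IgG replicate 2, a fitted log2 difference of 9.19. Olig1 (ENSMUSG00000046160, chr16:91269772-91271933, plus strand) ran the other way, at 0.252, 0.691 and 0.783 CPM in set A and 309, 64.1, 89.2 and 113 CPM in the others, a log2 difference of -8.00. These 2 genes were chosen for this pattern, and their levels are a description given without a test result.

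The same held cell by cell. A Wfdc2 UMI was found in 84.5%, 84.7% and 85.3% of set A tumour cells and in 1.62%, 0.282%, 0.462% and 0.235% of those in UT, BP replicate 1, CD40 and IgG replicate 2. An Olig1 UMI was found in 0.0971%, 0.734% and 0.622% of set A tumour cells and in 82.7%, 44.2%, 54.1% and 65.0% of the others. Cells with both were rare, 1, 11 and 7 in set A and 21, 2, 4 and 8 in the others. Leukocytes, which should lack both genes, give a partial reading of the background from free RNA. They passed the same quality limits and held at least 2 UMIs of Ptprc and C1qa summed together. None held a UMI of Egfr, Cdkn2a, Sox2, Nes, Cldn5 or Pecam1. This rule drops leukocytes with free RNA of the tumour genes, so their shares can lie below the full background. They were shallower, with medians of 3222 to 7068 UMIs per library. Wfdc2 was in 7.83%, 3.95% and 3.57% of set A leukocytes, and Olig1 in 10.6%, 1.73%, 2.23% and 3.00% of leukocytes of the others, far below the tumour cells of the same libraries. Where the tumour cells were close to 0, leukocytes held less still: Olig1 was in 0 of 217, 506 and 1147 set A leukocytes, and Wfdc2 in 0.272%, 0.0596%, 0.353% and 0% of leukocytes of the others. The deeper tumour cells lay above these values in all 7 libraries, and the gap was not tested. After every cell was thinned to 2000 UMIs, Wfdc2 was in 40.6%, 42.8% and 47.7% of set A tumour cells and in at most 0.498% of the others, while Olig1 was in at most 0.106% of set A cells and in 40.1%, 11.9%, 15.9% and 19.96% of the others.

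**Figure D1:**
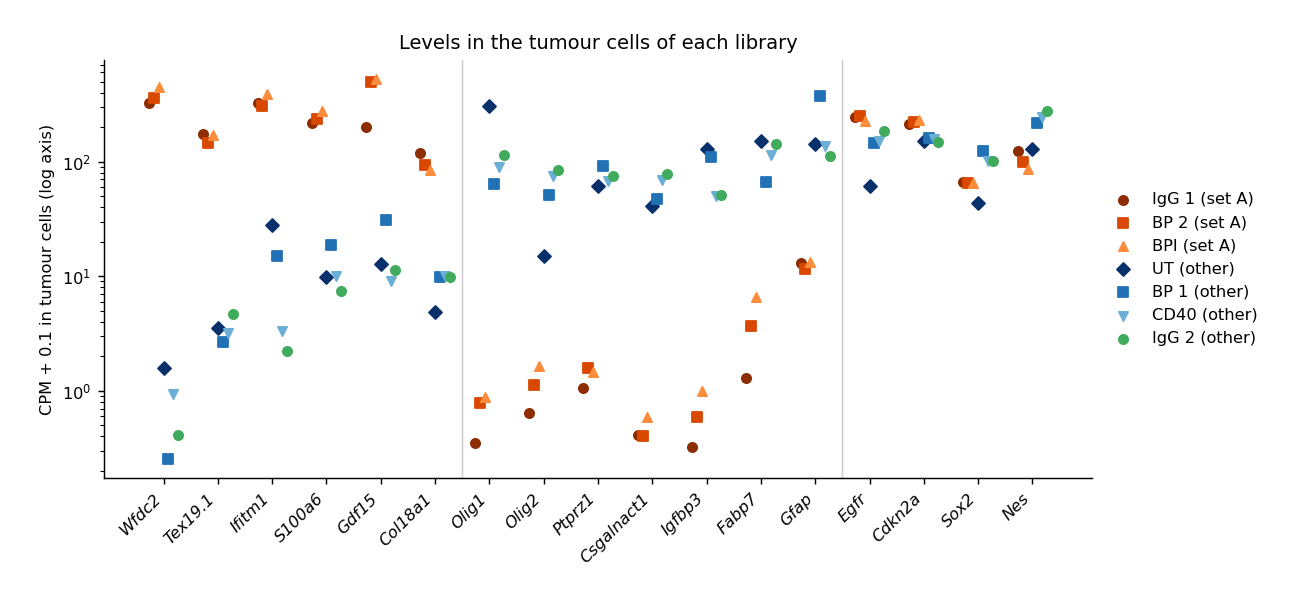
Levels of 17 genes in tumour cells, 1 point per library, as CPM + 0.1 on a log axis; set A is in reds and browns, the other 4 libraries in blues and green. The genes left of the first line sit high in all 3 set A libraries, those in the middle sit high in all 4 others, and the 4 rule genes on the right differ far less.

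In all, 18122 genes were tested with edgeR's quasi-likelihood test at a Benjamini-Hochberg adjusted p under 0.05. Among them were Wfdc2, Olig1 and the rule genes Egfr, Cdkn2a, Sox2 and Nes, for which no single test result is given. In set A 1192 genes were higher (6.58% of those tested) and 1821 were lower (10.0%), 3013 in all (16.6%). Of these, 386 were at least 4-fold higher and 892 at least 4-fold lower. The 3 set A libraries lay all above or all below the other 4 for 6478 genes (35.7%). The median log2 difference over all tested genes was -0.06. The count depended on the libraries: it was 1050 without BP replicate 2, 1127 without BPI, 1169 without IgG replicate 1 and 4962 without UT. With the 4 IgG and BP libraries alone and treatment as a term, 1368 genes passed. The set A libraries resembled each other more closely than the others did, with a median log2 range within a set of 0.17 against 0.71 over genes with a mean log2 CPM of at least 5. Whether libraries of one treatment came from separate cohorts is not stated, so the spread that the p-values measure may be partly technical.

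Wfdc2, Olig1 and genes with clone names were left out of the ranking below. One of the latter, Gm48362 on chromosome 9, had a larger log2 difference (6.12) than any rise ranked. Among the other autosomal genes with a mean log2 CPM of at least 5 that rose in set A without overlap, the largest difference was in Tex19.1 (ENSMUSG00000039329, chr11:121146143-121148319, plus strand), a germline and placenta gene that restrains transposable elements. It stood at 174, 145 and 170 CPM in set A and 3.45, 2.54, 3.11 and 4.58 CPM in the others. The groups did not overlap, and the log2 difference was 5.57 ± 0.23 (SE, edgeR adjusted p 4.44e-05). Ifitm1, an interferon-inducible membrane protein, stood at 324, 305 and 386 CPM against 28.0, 14.9, 3.23 and 2.15 CPM, and rose by 4.82 ± 0.86 (edgeR adjusted p 0.00882). Gdf15, a stress-induced hormone of the TGF-beta family, stood at 201, 496 and 528 CPM against 12.7, 30.9, 8.999 and 11.3 CPM, and rose by 4.67 ± 0.53 (edgeR adjusted p 0.00138). In all 3 genes the lowest set A library lay well above the highest of the others. S100a6, a calcium-binding protein, stood at 217, 234 and 278 CPM against 9.70, 18.8, 9.92 and 7.36 CPM, a log2 rise of 4.41 ± 0.33 (edgeR adjusted p 0.000234). Col18a1, the collagen whose fragment is endostatin, stood at 118, 92.98 and 85.3 CPM against 4.77, 9.73, 9.93 and 9.71 CPM, a log2 rise of 3.53 ± 0.28 (edgeR adjusted p 0.000279). The further 10 of the 15 largest rises by this ranking were Glipr1, Srgn, Apold1, Tmem37, Mpzl2, Pde6a, Ddt, H60b, Btg2 and Frmd5, with log2 differences from 3.77 down to 2.66. Among them Ddt, a homologue of the cytokine Mif, had the narrowest error, 2.89 ± 0.16, with 284 to 308 CPM in set A against 33.7 to 45.1 CPM in the others. With single libraries left out the calls of Srgn, Apold1, Mpzl2 and H60b were lost: Srgn without UT, CD40 or any set A library, Apold1 without BP replicate 2 or BPI, Mpzl2 without IgG replicate 1 or BP replicate 2, and H60b without any library but UT or CD40.

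By the same ranking, the largest fall in set A was in Igfbp3 (ENSMUSG00000020427, chr11:7206086-7213923, minus strand), which binds insulin-like growth factors. It stood at 0.220, 0.487 and 0.891 CPM in set A and 128.02, 109, 49.8 and 50.6 CPM in the others, with a log2 difference of -7.36 ± 0.66 (edgeR adjusted p 0.000483). Csgalnact1, an enzyme of chondroitin sulphate synthesis, followed at 0.315, 0.305 and 0.486 CPM against 40.6, 47.2, 69.5 and 78.6 CPM (log2 difference -7.34 ± 0.38, edgeR adjusted p 7.72e-05). Both genes were near 0 in every set A library. Ptprz1 (ENSMUSG00000068748, chr6:22875502-23052916, plus strand), a receptor phosphatase of glial progenitors, stood at 0.960, 1.48 and 1.35 CPM against 61.5, 92.0, 68.3 and 74.6 CPM (log2 difference -5.88 ± 0.26, edgeR adjusted p 4.44e-05). Olig2 (ENSMUSG00000039830, chr16:91225457-91228677, plus strand), the partner of Olig1, stood at 0.535, 1.02 and 1.54 CPM against 14.8, 50.9, 75.4 and 85.0 CPM (log2 difference -5.80 ± 0.72, edgeR adjusted p 0.00198). UT had the lowest Olig2 of the 4 other libraries although it had the highest Olig1. Fabp7, a fatty acid binding protein of radial glia, stood at 1.20, 3.59 and 6.43 CPM against 152, 66.7, 114 and 143 CPM (log2 difference -5.00 ± 0.62, edgeR adjusted p 0.00194). The further 10 were Ccbe1, Plpp3, Inpp4b, Pou3f2, Cdh2, Cdh20, Sema6d, Fam181b, Col4a1 and Limch1, with log2 differences from -5.92 to -4.98. They include Cdh2, which encodes N-cadherin, and Pou3f2, a neural transcription factor also called Brn2.

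Some genes were close to absent in one set. In 19 genes, every set A library was under 2 CPM and every other library at 20 CPM or more, and 2 of them, Uty and Eif2s3y, are Y-linked. Besides Olig1, Igfbp3, Csgalnact1, Ptprz1, Plpp3 and Cdh20 these held Xylt1, an enzyme that starts proteoglycan chains, at 0.528 to 0.551 CPM in set A against 20.5 to 24.5 CPM in the others. In the converse direction there were 4 genes, Wfdc2, Piwil2, Atp2b4 and Il17b, named here after their values were seen. Piwil2, a germline gene of the piRNA pathway, had 3551, 2409 and 1796 UMIs in set A and 10, 43, 120 and 97 UMIs in UT, BP replicate 1, CD40 and IgG replicate 2.

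Glial lineage genes as groups were lower in set A. The lists below were chosen with earlier results of these data known, and their counts and medians leave out the rule genes, Wfdc2 and Olig1. The counts stand beside 6.58% higher and 10.0% lower among all tested genes. In the oligodendrocyte progenitor list 17 of 28 tested members fell and 0 rose, with a median log2 difference of -2.32. Without overlap between the sets, 3 of these members were higher and 19 lower in set A, beside 35.7% in either direction among all tested genes. The falls numbered 13 without BP replicate 2 or BPI and 14 without IgG replicate 1, and 1 member rose without UT or with DESeq2. In the astrocyte list 18 of 29 fell and 0 rose (median -2.33), and in the neural stem cell list 15 of 22 fell and 0 rose (median -1.60). In the neural progenitor and neuronal list 12 of 26 fell and 2 rose (median -1.46). With 1 set A library left out the falls numbered 8 in the neural stem cell list whichever it was, and in the neural progenitor list 5 without IgG replicate 1 and 4 without BP replicate 2 or BPI, while 4 rose there without UT. The medians lay far below that of all tested genes.

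Within these lists the members differed in how far they went. Sox1, a transcription factor of early neural tissue, had the largest difference at 0 to 0.0315 CPM in set A against 8.86 to 10.8 CPM in the others (log2 difference -8.82 ± 0.47, edgeR adjusted p 7.87e-05). Sox10, a factor of oligodendrocyte identity, was low everywhere, at 0.236, 0.122 and 0.108 CPM in set A and 0.946, 1.78, 1.92 and 1.36 CPM in the others, and fell by 3.23 on the log2 scale (edgeR adjusted p 0.00334). Gfap, the intermediate filament of astrocytes, stood at 12.9, 11.4 and 13.1 CPM against 142, 377, 138 and 113 CPM (log2 difference -3.95 ± 0.48, edgeR adjusted p 0.00173). Mlc1, a membrane protein of astrocyte endfeet, stood at 0.220 to 0.405 CPM against 8.83 to 25.01 CPM, and Rfx4, a factor of the neural tube, at 2.56 to 6.64 CPM against 56.8 to 211 CPM. Pdgfra, the receptor of oligodendrocyte progenitors, was low in all 7 libraries, at 2.30, 2.15 and 1.35 CPM in set A and 0.845, 4.54, 1.13 and 0.701 CPM in the others. It did not pass (log2 difference 0.10 ± 0.67, edgeR adjusted p 0.938). The rises in the progenitor list were Tubb3, a neuronal tubulin, at 18.0 to 25.4 CPM against 5.48 to 7.27 CPM, and Btg2, an antiproliferative gene that is also immediate-early.

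Olig2 and Sox1 were under 2 CPM in every set A library. The lineage lists were not silent there: the oligodendrocyte progenitor list summed to 269 to 318 CPM in set A against 1034 to 1092 CPM in the others, the astrocyte list to 1532 to 1742 CPM in set A against 2212 to 3933 CPM in the others, the neural stem cell list to 1212 to 1282 and 1855 to 2548 CPM, and the neural progenitor list to 820 to 976 and 887 to 983 CPM. The sums of the last list overlapped between the sets and those of the first 3 did not. Unlike the counts and medians, the sums did not leave out Olig1, which was chosen for this pattern. Olig1 stood at 309, 64.1, 89.2 and 113 CPM in UT, BP replicate 1, CD40 and IgG replicate 2. In the other 4 libraries Sox10 and Pdgfra were low too, so the glial label rests there on part of its genes, and set A is given no other cell type name. Markers of other cell types were counted beside the 10.0% of all tested genes that fell. In the mature oligodendrocyte list 8 of 10 fell, with summed levels of 37.0 to 57.9 CPM in set A against 80.2 to 254 CPM in the others, and Mobp and Mag were at 0 in IgG replicate 1. In the endothelial list 5 of 9 fell, with sums of 22.8 to 29.7 and 21.4 to 45.5 CPM, and Cdh5 and Tie1 were at 0 in BPI. In the mural and fibroblast list 3 of 10 fell, with sums of 19.98 to 25.1 and 27.1 to 55.9 CPM. Of the myeloid markers 1 of 12 fell, with sums of 12.7 to 33.8 and 21.7 to 127 CPM. Of the ependymal and choroid plexus markers 2 of 9 fell, with sums of 9.94 to 42.4 and 6.20 to 1121 CPM. Of the lymphoid markers 1 of 11 fell, with sums of 7.33 to 30.2 and 5.74 to 186 CPM, so that the myeloid and lymphoid counts were near the share of all genes. Of the neuron markers 2 of 8 fell, with sums of 7.34 to 11.4 and 11.8 to 28.4 CPM. The red cell markers ran the other way: 1 of 3, Hba-a1, rose, with sums of 3.86 to 11.4 CPM in set A against 1.69 to 3.60 CPM in the others, a call kept only without BPI or UT. The falls in the mature oligodendrocyte list numbered 2 without IgG replicate 1, 0 without BP replicate 2 or BPI and 5 without CD40 or IgG replicate 2, and those in the endothelial list 1 without any single set A library and 3 without CD40 or IgG replicate 2. Without any single set A library 0 mural, 0 lymphoid and 1 neuron marker fell; the lymphoid fall was also lost without CD40 or IgG replicate 2, and the neuron falls also numbered 1 there. The myeloid falls numbered 3 without IgG replicate 2 and 2 without UT. In the ependymal list 1 fell without BP replicate 2 or BPI, 3 without BP replicate 1 and 4 without UT. The part of such cells in the differences was not tested.

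**Figure D2:**
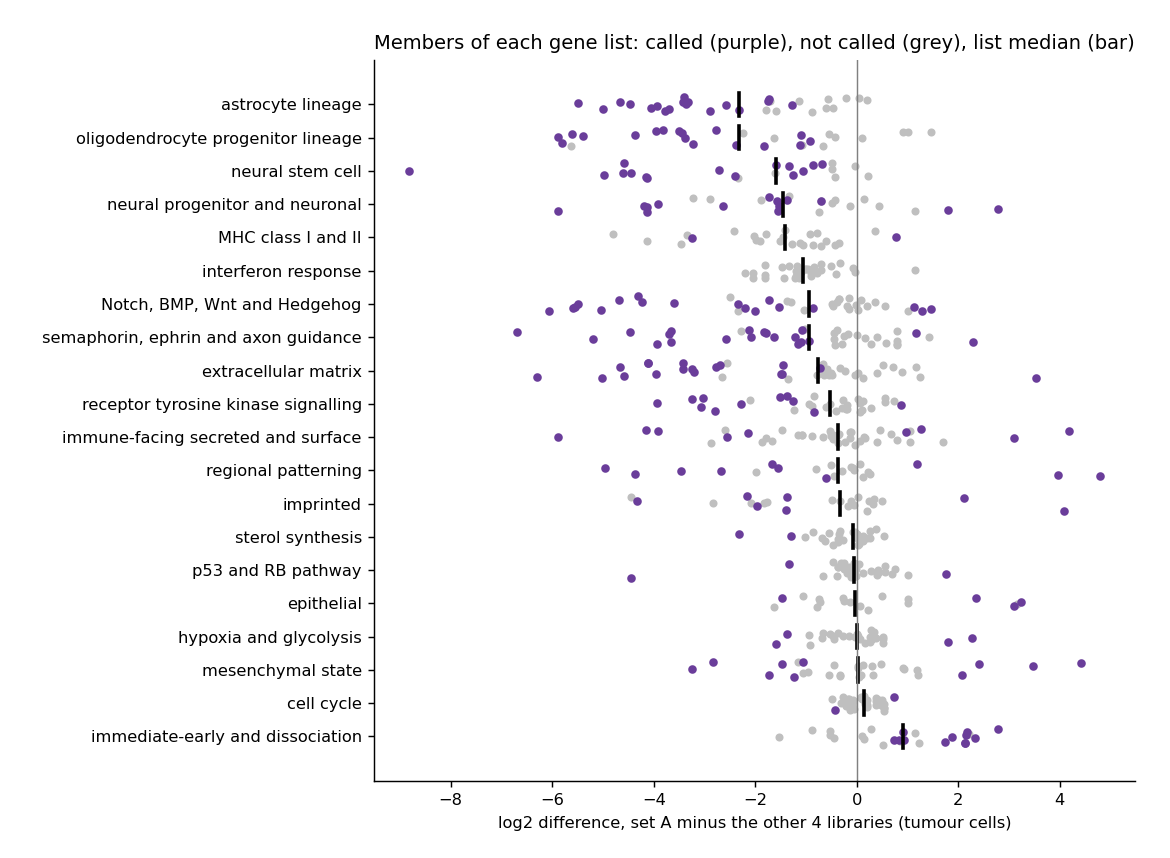
Log2 difference, set A minus the other 4 libraries, in tumour cells, for each tested member of 20 gene lists; purple points passed the edgeR test, grey points did not, and the black bar is the list's median. The astrocyte, oligodendrocyte progenitor and neural stem cell lists lie furthest to the left and the immediate-early list furthest to the right.

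In the mesenchymal list 4 of 29 rose and 6 fell, with a median of 0.03, beside 6.58% and 10.0% of all tested genes. The rises were S100a6, Anxa3 (40.3 to 44.99 CPM in set A, 2.40 to 7.33 CPM in the others), S100a11 (238 to 296 against 44.5 to 55.2 CPM) and S100a10 (393 to 640 against 74.9 to 211 CPM), all small calcium-binding or annexin proteins. Among the falls, Anxa1 stood at 12.6 to 16.9 CPM against 30.5 to 60.7 CPM, and Sparc, a matricellular protein, at 40.1 to 59.6 CPM against 108 to 169 CPM. With any single set A library left out, 2 members fell. In the epithelial list 3 of 18 rose and 1, Tjp3, fell, with a median of -0.04, and the fall was lost without any single library except BP replicate 1. Slpi, a secreted protease inhibitor, reached 12.2 to 18.98 CPM against 0.907 to 3.68 CPM, and Elf3, an epithelial transcription factor, 3.15 to 3.51 CPM against 0.333 to 1.12 CPM. Epcam, the epithelial adhesion molecule, passed the test at no more than 0.569 CPM in any library. Elf3 did not pass without BP replicate 2 or BPI. With 1 library left out the medians of both lists took either sign, from -0.091 to 0.12 in the mesenchymal and -0.20 to 0.50 in the epithelial list.

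Genes that mark position along the body axis and imprinted genes were read against the 6.58% higher and 10.0% lower of all tested genes. Of 22 regional patterning genes, 3 rose and 7 fell (median -0.36). Hoxa7, a gene of the posterior body axis, stood at 12.7, 13.4 and 13.3 CPM in set A and 2.23, 0.639, 0.322 and 0.392 CPM in the others (log2 difference 3.95 ± 0.66, edgeR adjusted p 0.00676). Nr2f2 stood at 90.2 to 94.6 CPM against 25.4 to 46.1 CPM, and Hoxb5 passed at under 1 CPM. Meis2, a homeobox gene of the forebrain among other tissues, fell from 183 to 413 CPM in the others to 40.7 to 44.5 CPM in set A. Of 23 imprinted genes 2 rose and 5 fell (median -0.34), among them Cd81 at 173 to 221 CPM against 411 to 624 CPM and Ndn, which encodes necdin, at 0.189 to 2.03 CPM against 8.85 to 49.8 CPM. The imprinted falls numbered 2 without BP replicate 2, among the calls lost that of Ndn, 3 without BPI and 8 without UT, and the regional rises 5 without UT. The imprinted median was -0.14 without CD40.

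Signalling genes were lower more often than higher, as were all tested genes, with 10.0% lower and 6.58% higher. In the receptor tyrosine kinase list 1 of 33 rose and 10 fell (median -0.52). Erbb4, a receptor of the EGFR family, stood at 2.34 to 10.3 CPM against 50.5 to 73.9 CPM, and Errfi1, a feedback inhibitor of EGFR, at 27.7 to 35.4 CPM against 15.1 to 23.1 CPM. In the list of Notch, BMP, Wnt and Hedgehog genes 3 of 38 rose and 15 fell (median -0.95). The Id genes, targets of BMP signalling, split: Id1 stood at 190 to 210 CPM against 50.05 to 94.6 CPM (log2 difference 1.47 ± 0.23, edgeR adjusted p 0.00531), and Id4 at 0 to 0.0812 CPM against 1.28 to 2.29 CPM (log2 difference -5.55 ± 0.79, edgeR adjusted p 0.00334). Wnt7b and Tcf7 were the other 2 rises, that of Wnt7b lost without CD40, IgG replicate 2 or any set A library. Without IgG replicate 1, BP replicate 2 or BPI the falls numbered 5, 4 and 5 in the receptor tyrosine kinase list, and 8 in the other list in each case. Without BP replicate 1 the receptor tyrosine kinase list had a median of -0.24 and 2 rises, and without BP replicate 2 or BPI it had 0 rises. Errfi1 did not pass without BP replicate 2 or BPI.

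Genes of the cell surface and matrix followed the same direction. Of 40 matrix genes 17 fell and 1, Col18a1, rose (median -0.76), beside 10.0% lower and 6.58% higher of all tested genes. Col4a1, a basement membrane collagen, stood at 2.13 to 2.85 CPM against 37.0 to 104 CPM, and Col9a3 at 3.37 to 5.08 CPM against 53.2 to 172 CPM. Of 39 semaphorin, ephrin and axon guidance genes 18 fell and 2 rose (median -0.94). Nrp1, a receptor shared by semaphorins and VEGF, stood at 0.362, 0.264 and 0.216 CPM in set A and 38.1, 50.05, 16.5 and 15.6 CPM in the others (log2 difference -6.70 ± 0.60, edgeR adjusted p 0.000485). Robo1, a Slit receptor, stood at 1.04 to 2.27 CPM against 31.9 to 50.6 CPM, whereas Slit1, a Slit ligand, stood at 4.05 to 5.71 CPM against 0.912 to 1.18 CPM. Without IgG replicate 1, BP replicate 2 or BPI, 10, 9 and 8 matrix genes and 7, 9 and 7 guidance genes fell, and without CD40 12 guidance genes did. The matrix rises numbered 3 without BP replicate 1 and 2 without UT, and the guidance rises 1 without BP replicate 2. The guidance median was -0.53 without BP replicate 1.

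Among 43 secreted and surface genes that face immune cells, 4 rose and 5 fell (median -0.38), shares near the 6.58% higher and 10.0% lower of all tested genes. Cxcl1, a neutrophil chemokine, stood at 39.3, 78.0 and 81.1 CPM in set A and 10.1, 3.27, 0.756 and 0.835 CPM in the others (log2 difference 4.19 ± 0.91, edgeR adjusted p 0.0187). Mif, a macrophage cytokine, was abundant throughout at 1717 to 1833 CPM against 534 to 923 CPM. Raet1e, a ligand of the NKG2D receptor, stood at 73.4 to 89.6 CPM against 24.4 to 58.8 CPM, and lies beside H60b on chromosome 10 where their annotated spans overlap, so reads of the pair may not be separable. Tgfb2, an immunosuppressive growth factor, stood at 0.991 to 1.24 CPM against 15.1 to 24.3 CPM, and Vegfc, a lymphatic growth factor, at 0.440 to 0.837 CPM against 1.45 to 15.1 CPM. Leaving out 1 library lowered the rises to 1 without BP replicate 2 or BPI and to 2 without any other library except UT, and the falls to 1 without any set A library. The median moved to -0.056 without BP replicate 1, -0.24 without IgG replicate 1, -0.25 without UT and -0.66 without IgG replicate 2. Calls were lost for Cxcl1 without BP replicate 1, BP replicate 2 or BPI, for Vegfc without any single set A library, and for Raet1e without CD40, IgG replicate 2 or any set A library.

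In the cell cycle list 1 of 34 rose and 1 fell (median 0.14), beside 6.58% and 10.0% of all tested genes, Rrm2 at 146 to 172 CPM against 75.5 to 121 CPM and Mcm4 at 92.2 to 99.5 CPM against 118 to 135 CPM. Thinned to 2000 UMIs, 81.2%, 75.9% and 72.7% of set A tumour cells held a UMI of Mki67 or Top2a, against 47.8%, 64.7%, 75.7% and 73.8% in the others. The means were 76.6% ± 4.29 (SD, n = 3) and 65.5% ± 12.7 (SD, n = 4). They differed by 11.1 percentage points, with a two-sided exact permutation p of 0.229. Over the 35 splits this test can give no p below 0.0571. The difference was 5.22 percentage points without UT (exact permutation p 0.40), 6.70 thinned to 1000 UMIs (0.571) and 5.15 in cells not thinned (0.0571). The last p is the smallest allowed, with set A at 96.5% to 98.4% and the others at 87.6% to 95.5%. In the p53 and RB list 1 of 31 rose and 2 fell (median -0.06), and the falls were the D-type cyclins Ccnd2 (1.86 to 5.27 against 39.6 to 108 CPM) and Ccnd1 (23.05 to 33.8 against 35.6 to 110 CPM). Trp53 and Nf1, tumour suppressors often lost in glioma, did not pass, with log2 differences of -0.09 ± 0.26 and -0.32 ± 0.25 (edgeR adjusted p 0.846 and 0.427). Among 28 hypoxia and glycolysis genes 2 rose and 2 fell, and among 27 sterol synthesis genes 0 rose and 2 fell. These small counts rest on single libraries: without UT, 5 cell cycle, 8 p53 and RB and 5 hypoxia genes rose, and without any single set A library 0 rose in each of these lists. The hypoxia falls numbered 0 without any single set A library and the hypoxia rises 0 without CD40, and the sterol falls numbered 1 without BPI. With 1 library left out the median ran from 0.070 to 0.22 in the cell cycle list and from -0.11 to 0.054 in the p53 and RB list. Rrm2, Mcm4 and Ccnd1 did not pass without CD40, IgG replicate 2 or any set A library.

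Of the 20 lineage and state lists, immediate-early genes had the highest median. Of 25 members 12 rose and 0 fell (median 0.90), beside 6.58% higher of all tested genes. The count was 8 without BP replicate 2 or without BPI. Fos, named after its values were seen, stood at 385, 605 and 736 CPM in set A and 132, 119, 145 and 132 CPM in the others, Junb at 839, 1207 and 1513 CPM against 352, 260, 226 and 226 CPM, and Ier3 at 194, 228 and 241 CPM against 58.5, 48.3, 44.6 and 44.5 CPM. These 3 encode products of the rapid transcriptional response, and their groups did not overlap. Nr4a1, an orphan nuclear receptor, stood at 33.6, 119 and 139 CPM against 17.7, 19.8, 21.5 and 18.1 CPM (log2 difference 2.33 ± 0.41, edgeR adjusted p 0.00847). Over 22 members the median log2(CPM + 0.5) was 5.85, 7.12 and 7.37 in IgG replicate 1, BP replicate 2 and BPI and 5.99, 5.79, 5.49 and 5.49 in the others, so IgG replicate 1 lay below UT on the list as a whole. These genes also respond to enzymatic dissociation of tissue, and the part of handling in the difference was not tested.

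Interferon and MHC genes divided the libraries along another line. Of all tested genes 6.58% were higher and 10.0% lower in set A. In the interferon list 0 of 30 members rose and 0 fell between the sets (median -1.06), and in the MHC list 1 of 25, the chaperone Calr, rose and 1, the class II regulator Ciita, fell (median -1.41), a call lost without UT, BP replicate 1 or any set A library. The medians rest on single libraries: that of the interferon list was -0.060 without UT and -1.95 without BPI, and that of the MHC list was -0.61 without UT. The following genes were chosen after their values were seen. Isg15, an interferon-induced ubiquitin-like protein, stood at 159, 205 and 541 CPM in set A and 1553, 511, 29.2 and 70.2 CPM in UT, BP replicate 1, CD40 and IgG replicate 2. B2m, the invariant chain of MHC class I, stood at 559, 972 and 1406 CPM and at 5456, 2154, 491 and 404 CPM. Cxcl10, a T cell chemokine, stood at 28.7, 104 and 498 CPM and at 759, 426, 2.17 and 9.47 CPM. In all 3 genes UT led, and set A lay between UT and the pair of CD40 and IgG replicate 2. Over 53 genes of the 2 lists the median log2(CPM + 0.5) was 4.63, 5.31 and 6.55 in set A and 8.29, 7.20, 4.12 and 4.22 in the others. Over 53 genes of the 4 lineage lists it was 4.28, 4.11 and 4.05 in set A and 5.95, 6.07, 6.00 and 5.89 in the others, without overlap.

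**Figure D3:**
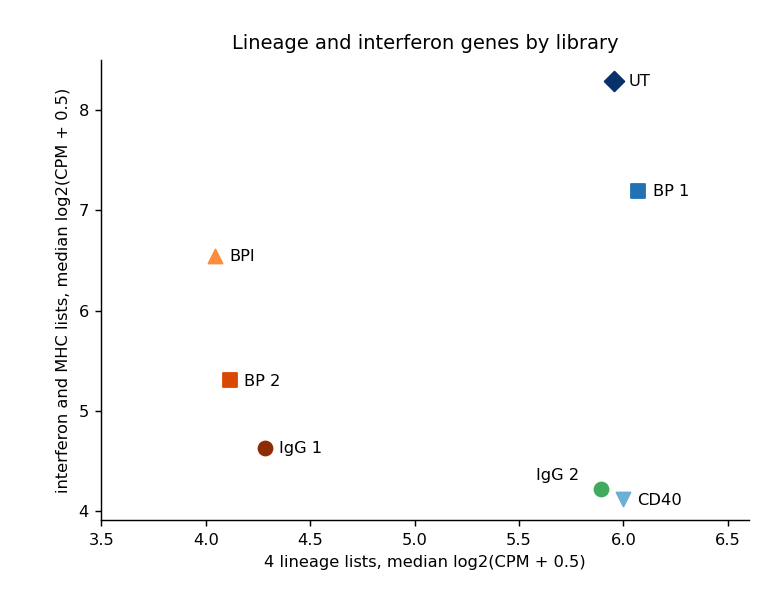
Each point is the tumour cells of 1 library; the horizontal axis is the median log2(CPM + 0.5) over 53 genes of the 4 lineage lists and the vertical axis the same over 53 interferon and MHC genes. Set A sits at 4.05 to 4.28 on the horizontal axis and the others at 5.89 to 6.07, while the vertical axis runs from 4.12 in CD40 to 8.29 in UT with set A in between.

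Pairs of libraries were compared over 5600 genes. Within set A, 5, 6 and 38 genes differed by 4-fold or more, and between CD40 and IgG replicate 2 only 2 did. Between a set A library and another library the count was 108 to 255. Between either of UT and BP replicate 1 and either of CD40 and IgG replicate 2 it was 106 to 155, and between UT and BP replicate 1 it was 52. The number of 4-fold genes between the sets therefore overlapped that inside the other 4 libraries. The genes were of other kinds. Those 4-fold apart between every set A and every other library numbered 65 (1.16% of 5600), of which 14 were higher and 51 lower in set A. The 14 include Wfdc2 and the 51 include Olig1, which were chosen for this pattern. The 51 held 9 of 34 lineage genes compared and 0 of 42 interferon or MHC genes. Those 4-fold apart between both of UT and BP replicate 1 and both of CD40 and IgG replicate 2 numbered 95 (1.70%). The 76 higher in UT and BP replicate 1 held 34 of the 42 interferon or MHC genes and 0 lineage genes. The 19 higher in CD40 and IgG replicate 2 held 11 of 16 histone genes, a group outside the lists above and chosen after the values were seen. The rest of the 19 were H60b, Ttr, Cmss1, Camk1d, Cdk8, Gm42418, AY036118 and B930036N10Rik. This second split follows the line seen above in the interferon and MHC genes, so its count of them restates that pattern. Ifitm1 was in both groups of 4-fold genes.

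The question whether a library is a mixture was read cell by cell. The 50 autosomal genes most in excess in IgG replicate 1 over IgG replicate 2, and the 50 most in excess the other way, gave each cell a share of UMIs on the IgG replicate 1 side. The choice fixes the values of the IgG libraries, so only the other 5 are read. The median share was 89.1% and 90.9% in BP replicate 2 and BPI, 58.2% in UT, 48.9% in BP replicate 1 and 29.0% in CD40. Cells above 50% made up 98.6% of BP replicate 2 (95% exact binomial interval 98.2% to 98.9%) and 99.1% of BPI (98.7% to 99.4%), against 71.5% of UT (69.0% to 73.8%), 45.9% of BP replicate 1 (44.1% to 47.8%) and 11.1% of CD40 (10.2% to 12.1%), intervals that cover counting error only. UT and BP replicate 1 had 46.3% and 48.5% of their cells between 40% and 60%, while BP replicate 2 and BPI had 2.14% and 1.76% there. The score was not made of lineage genes alone: of the 50 genes on the IgG replicate 1 side 6 were immediate-early genes and 6 were among those 4-fold higher in UT and BP replicate 1, and of the 50 on the other side 5 were lineage genes. It also held Wfdc2, the gene with the largest excess. Olig1 was not in it. The share counts UMIs, so genes with high levels weigh more. Of genes chosen after their values were seen, Ifitm3 on the IgG replicate 1 side stood at 3837, 2184 and 437 CPM in UT, BP replicate 1 and CD40. On the other side Ttr stood at 0.0338, 0.0152 and 1084 CPM in the same libraries, and Hist1h1b at 15.5, 119 and 595 CPM. The part of such genes in the shares of UT, BP replicate 1 and CD40 was not tested. With Wfdc2 left out and the next gene taken instead, a setting chosen after seeing the data, cells above 50% made up 98.6% of BP replicate 2, 99.1% of BPI, 72.0% of UT, 46.4% of BP replicate 1 and 11.9% of CD40. With 20 genes a side, the share above 50% was 29.2% in UT, 18.3% in BP replicate 1 and 5.65% in CD40, and 97.1% and 97.4% in BP replicate 2 and BPI.

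**Figure D4:**
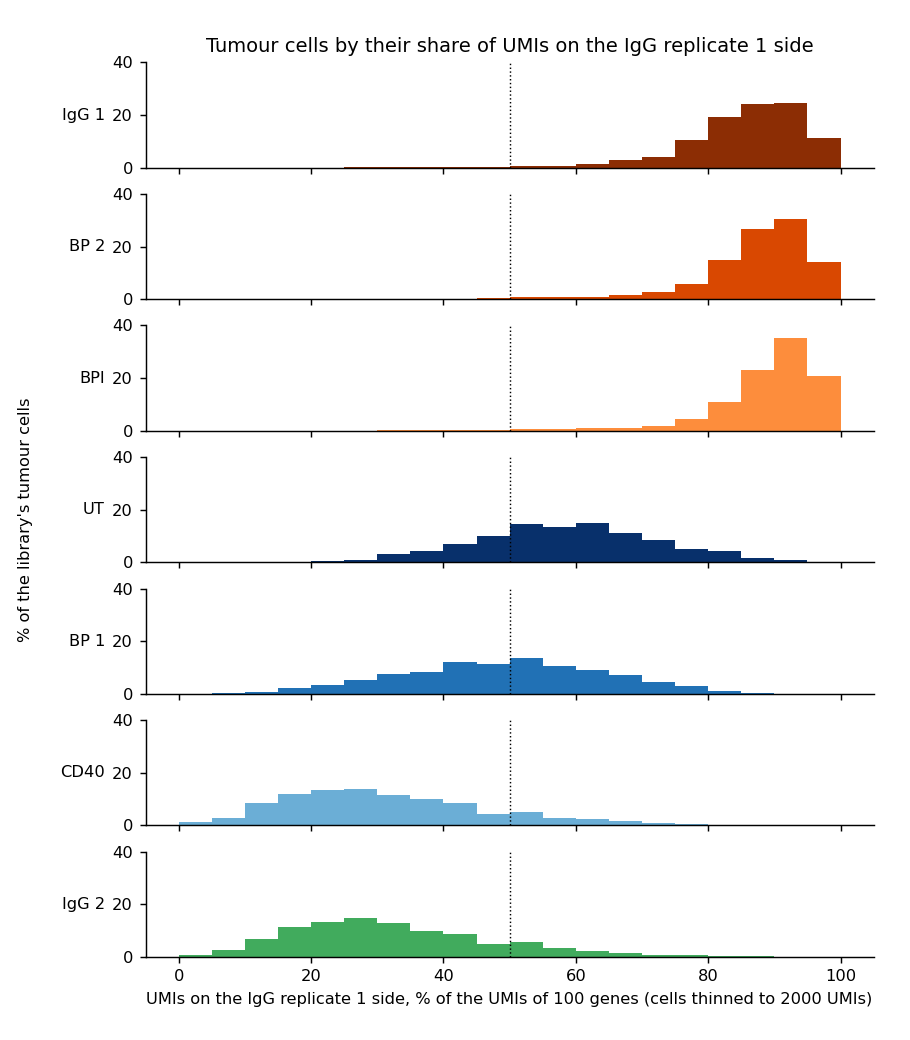
Histograms of tumour cells by their share of UMIs on the IgG replicate 1 side of 100 genes, 1 panel per library, each bar a percent of that library's cells after thinning to 2000 UMIs; the dotted line marks 50%. The gene choice fixes the positions of both IgG panels; BP replicate 2 and BPI have medians of 89.1% and 90.9%, CD40 of 29.0%, and UT and BP replicate 1 form broad single humps around 58.2% and 48.9%.

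IgG and BP have 1 library on either side, so treatment was fitted beside the library set. With the set as a term, edgeR called 0 of 18166 genes (0% called) between BP and IgG tumour cells, 1153 genes had an unadjusted p under 0.05, and DESeq2 called 203. The edgeR count was 101 without a filter on low counts. With 1 library per treatment in each set, the spread could hardly be measured, so 0 calls do not show that BP had no effect. Over 53 interferon and MHC genes the median log2 level was 5.31 in BP replicate 2 against 4.63 in IgG replicate 1. It was 7.20 in BP replicate 1 against 4.22 in IgG replicate 2. The immediate-early median was also higher in BP in both sets, and the lineage median only outside set A. Inside each set BP and IgG have 1 library each, so these gaps cannot be told apart from other differences between those libraries. BP replicate 1 and IgG replicate 2 differed 4-fold or more in 106 of 5600 genes, and IgG replicate 1 and BP replicate 2 in 6. The free RNA bound was 3.74% in BP replicate 1 and 1.05% in IgG replicate 2. Whether the gaps come from treatment was not tested. BPI, CD40 and UT have 1 library each, so their treatment and that library cannot be told apart, and they were not compared by treatment.

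The differing genes were also read along the chromosomes. Of 96 windows of 100 neighbouring genes, 5 (5.21%) had a median beyond 0.3 on the log2 scale without overlap between the sets. On chromosome 15 windows 1 and 3 had medians of 0.44 and 0.38, on chromosome 16 windows 1 and 3 had -0.37 and -0.35, and on chromosome 3 window 1 had 0.53. Over all genes of chromosome 15 the median difference was 0.36, with the set A libraries at 0.19 to 0.21 relative to the mean of the 7 libraries and the others at -0.24 to 0.02. UT stood apart there at 0.02, with BP replicate 1, CD40 and IgG replicate 2 at -0.22, -0.24 and -0.19. In window 2 of this chromosome, with a median difference of 0.38, UT at 0.247 lay inside the set A range of 0.226 to 0.273. Over chromosome 16, which carries Olig1 and Olig2, it was -0.34, with set A at -0.20 to -0.17 and the others at -0.04 to 0.36. UT lay at the top of the others on chromosome 16 and without it the 5 windows past the limit were all higher in set A and 0 were lower. In leukocytes of the same libraries 0 of the 96 windows passed (0%), and the medians of the 5 windows were 0.14 on chromosome 3, 0.11 and -0.01 on chromosome 15 and -0.08 and 0.08 on chromosome 16. Copy number was not measured here.

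**Figure D5:**
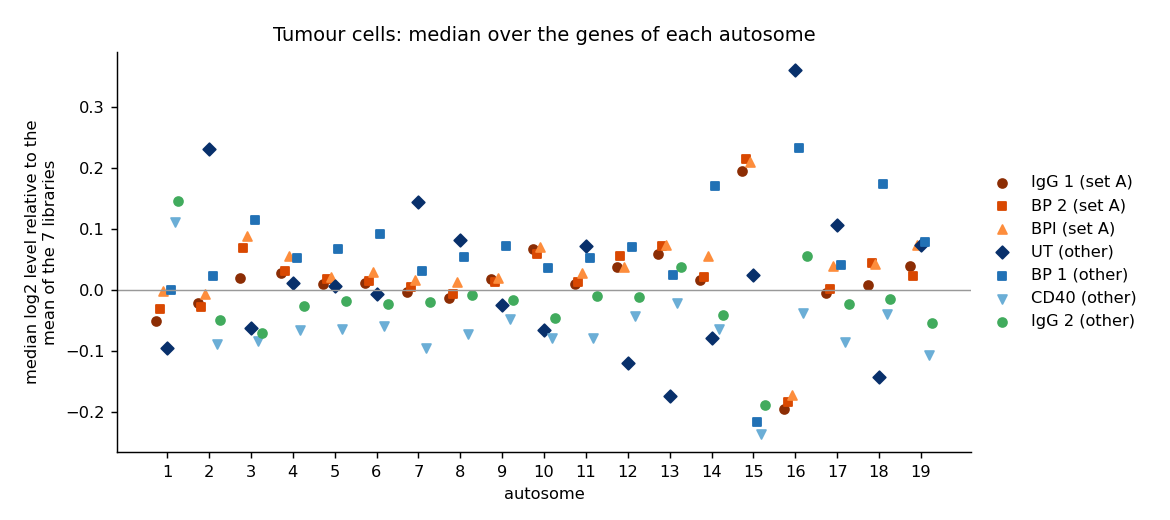
Median log2 level of the genes of each autosome in tumour cells, relative to the mean of the 7 libraries, 1 point per library. On chromosome 15 the 3 set A libraries sit at 0.19 to 0.21 above the other 4, of which UT is nearest at 0.02. On chromosome 16 the set A libraries sit at -0.20 to -0.17 below the others.

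The same contrast was made in 5733 leukocytes of these libraries, host cells that share the tumour cells' handling. They were taken by the leukocyte rule above, which leaves out any with a UMI of Egfr, Cdkn2a, Sox2 or Nes. Of 12542 genes tested 1 was called by edgeR (0.00797%), Tex19.1, at 7.6 to 12.0 CPM in set A against 0.07 to 0.20 CPM in the others (log2 difference 5.89 ± 0.52, edgeR adjusted p 0.033). This gene was far higher in the tumour cells of set A, and Wfdc2 stood in leukocytes at 18.4, 11.8 and 14.9 CPM against 0.37, 0.07, 0.35 and 0 CPM. At an unadjusted p under 0.05 there were 818 genes, and DESeq2 called 59. Leaving out any 1 library left 0 genes. The 749 genes higher in set A tumour cells that could be tested in leukocytes had a median log2 difference of 0.79 in tumour cells and 0.36 in leukocytes, the 946 lower genes had -1.39 and -0.40, and the 10374 genes not called had -0.02 and -0.08. Leukocyte numbers per library ran from 217 to 1677, so these values rest on less depth than those of the tumour cells.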

How the data were processed

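Single-cell 3′ RNA libraries of whole NSCG-mCherry brain tumours were used as UMI counts per gene and barcode. The authors deposited these unnormalized counts as 10x matrices; the submitters' processing notes name Cell Ranger 7.0.1 and mm10, while the file headers name Cell Ranger 4, and which version made the counts could not be settled. Every library is listed with all 32285 features. Raw matrices hold empty barcodes, so cells were taken by the limits given in the report, and no doublet caller was run. UMIs were summed per library over tumour cells and fitted with edgeR 4.0.16 (R 4.3.3) by quasi-likelihood after TMM scaling; genes passed filterByExpr, and p-values were adjusted over all of them by Benjamini-Hochberg. DESeq2 1.42.0 was an alternative. Single values were compared by an exact permutation test over libraries. CPM values use TMM-scaled library sizes, with a pseudocount of 0.5 where a log2 level is given. Scripts were tested on simulated data.

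Members, lists and tests were chosen with earlier results of these data known. Genes named in the text are the 15 largest rises and 15 largest falls among called autosomal genes with a mean log2 CPM of at least 5, no overlap between the sets and a symbol that is no clone name, up to 4 called members each way in each list, and 13 genes whatever their values, 1 of which is not reported here; others are marked as chosen after their values were seen. Gene positions are from GENCODE M21 (GRCm38). Pairs of libraries and 4-fold counts used 5600 genes with a mean log2 CPM of at least 5, and windows used genes with a mean of at least 3. Alternatives covered the test, scaling, filter, cell limits, free RNA, depth, cycling cells, a replicate block, a treatment term and each library left out. An exact binomial interval is at the 95% level. PCR was collapsed by UMI, and intervals cover counting error only.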

Additional observations from a re-analysis of the deposited data

Results flagged for a closer look

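In the 4 other libraries, 73 values were examined for a library far from the rest, and 7 had a gap to the nearest library above 0.829 of the group's range; chance gives about 1 in 20. BP replicate 1 was highest for Gdf15, at 30.9 CPM against 8.999 to 12.7 CPM, for Pdgfra, at 4.54 CPM against 0.701 to 1.13 CPM, and for Gfap, at 377 CPM against 113 to 142 CPM. It was also highest for the summed extracellular matrix list, at 1634 CPM against 1089 to 1162 CPM. UT was lowest for Col18a1, at 4.77 CPM against 9.71 to 9.93 CPM. UT was highest for Apold1, at 20.7 CPM against 2.75 to 3.74 CPM, and for Fam181b, at 131 CPM against 65.1 to 73.7 CPM. All 7 came from UT or BP replicate 1, the 2 libraries with the most free RNA by the bound given above and the most interferon and MHC RNA; the part of either was not tested.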

How the results depend on the processing

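The 3013 genes called between the sets in tumour cells became 66 in cells with no UMI of Mki67, Top2a, Cenpf or Birc5, where 18 cells were left in IgG replicate 1, and 1368 with the IgG and BP libraries and a treatment term. Leaving out 1 library gave 1050 to 4962. The calls in the gene lists, 181 in all, became 7 in cells without those UMIs and ranged from 103 to 231 with 1 library left out. Of the 30 largest differences, 30 passed with DESeq2, DESeq2 size factors, no filter, thinned sums, free RNA subtracted, either stricter cell limit, the treatment term or Egfr left out of the cell rule. The limit of 5% mitochondrial UMIs and the rule without Egfr were chosen after seeing the data. With 1 library left out 26 to 29 passed, and 14 did in cells without cycling UMIs.

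With the replicate number as a block in the IgG and BP libraries, 242 genes passed between the sets, 35 of them list members, and 23 of the 30 largest differences; in leukocytes 0 did. Same-numbered libraries deviated in opposite directions (correlation -0.67 over 5421 genes), and the crossed pairing is the library set itself, under which 0 genes passed between BP and IgG.

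In leukocytes the single call became 59 with DESeq2, 2 without a filter, 0 with the treatment term and 0 to 0 with 1 library left out. Between BP and IgG tumour cells the 0 calls became 203 with DESeq2, 101 without a filter, 27 in cells without cycling UMIs and 1 in thinned sums; leaving out a library there left 0 residual degrees of freedom and was not run. The share of cells on the set A side, thinned to 1000 UMIs, became 98.1% in BP replicate 2, 65.4% in UT and 12.4% in CD40. With 20 genes a side it became 97.1% in BP replicate 2, 97.4% in BPI, 29.2% in UT, 18.3% in BP replicate 1 and 5.65% in CD40. Windows past the limit became 13 with 50 genes each and 1 at a limit of 0.5, and 5 to 6 with 1 library left out.

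Log2 differences changed sign in cells without cycling UMIs for Gad1 (0.36), Tagln (1.05), Errfi1 (-0.076) and Mcm4 (0.30). That of Pdgfra, which was not called, became -0.074 without CD40, -0.036 without IgG replicate 1, -0.16 without IgG replicate 2 and -0.12 without UT, and was 1.11 without BP replicate 1. That of Trp53, also not called, became 0.058 with the replicate block or the treatment term and ranged from -0.23 to 0.17 with 1 library left out. The cause of these changes was not tested beyond the smaller number of cells or libraries. The 7 libraries of pooled mice limit the precision more than depth does, except in leukocytes and in cells without cycling UMIs.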

Other observations

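Ribosomal protein genes and Gm42418 were chosen after their values were seen. As a group, ribosomal protein genes were higher in set A tumour cells. Of 76 tested, 32 rose and 0 fell by edgeR, beside 6.58% higher of all tested genes, with a median log2 difference of 0.55 beside -0.06 for all genes. Their summed level was 254047, 262134 and 283233 CPM in IgG replicate 1, BP replicate 2 and BPI, and 177488, 142899, 193853 and 199220 CPM in UT, BP replicate 1, CD40 and IgG replicate 2, without overlap. Gm42418, which overlaps ribosomal RNA, did not pass and stood at 10153, 12071 and 18758 CPM in set A and 72.1, 2588, 12082 and 13026 CPM in the others.

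The values of 6 genes of the sex chromosomes in tumour cells follow, also chosen after their values were seen. The chromosomes as a whole were not compared. Kdm5d, a Y-linked histone demethylase, stood at 0, 0 and 0.0270 CPM in set A and 9.83, 20.2, 10.8 and 10.9 CPM in the others. Uty, another, stood at 0.110, 0.223 and 0.108 CPM against 44.1, 96.05, 39.2 and 37.5 CPM. Eif2s3y stood at 0.0472, 0.0609 and 0 CPM against 47.8, 43.5, 23.7 and 27.4 CPM. All 3 fell by edgeR, as did Ddx3y, which was not near 0 in set A, at 4.28, 6.68 and 7.18 CPM against 55.3, 81.3, 37.3 and 37.6 CPM. Tmsb4x, an X-linked actin-binding peptide, stood at 22.2, 37.2 and 84.9 CPM in set A and 1127, 1149, 1126 and 1121 CPM in the others, where the 4 libraries were almost level. Xist, the RNA that silences an X chromosome, was low in tumour cells of all 7 libraries, at 0.881, 0.569 and 1.16 CPM in set A and 0.0676, 11.1, 11.6 and 5.90 CPM in the others.

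In leukocytes of the same libraries Xist stood at 569, 485 and 514 CPM in set A and at 0.165, 686, 827 and 908 CPM in the others, and Uty at 0 in the 3 set A libraries and at 43.2, 3.09, 1.01 and 0.422 CPM in the others. UT was the single library whose leukocytes lacked Xist and held Uty. The labels do not give the sex of the mice or of the line.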
